A study of Mus musculus with 84 samples.

Results

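The regions described here are the active distal enhancers of control adipocytes, 417 of the 70778 merged H3K4me1 regions of the series. They were chosen by measured peaks: a merged H3K4me1 region lay more than 2000 bp from every protein-coding transcription start site (TSS), touched no H3K4me3 peak of any library, and carried H3K4me1 in 5 or more of 10 and H3K27ac in 5 or more of 9 libraries of chow-fed control mice. The study profiled 4 histone marks by CUT&Tag, where a transposase tethered to the antibody inserts sequencing adapters next to the marked histone, in nuclei of epididymal adipocytes, and 84 peak lists were analysed (22 for H3K4me1, 21 for H3K27ac, 21 for H3K4me3 and 20 for H3K27me3). All animals, controls included, were male AdipoERCre x NuTRAP mice given tamoxifen before the diet, so that adipocyte nuclei carried a biotin label set before weight gain, and nuclei were pulled down through that label from frozen fat. In the first cohort, C (18 weeks of age) and CC_s (26 weeks) were fed chow, H (18 weeks) had eaten high-fat diet for 12 weeks and was obese, and HC (26 weeks) had the same diet followed by 8 weeks of chow with weight loss. In the second cohort, CC_l (31 weeks) and CCC (39 weeks) were fed chow, HH (31 weeks) had high-fat diet for 25 weeks, and HHC (39 weeks) had that diet followed by 8 weeks of chow. Each group had 2 or 3 libraries per mark, and the replicate number names the animal whose fat gave all marks.

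Enhancers are stretches of DNA that raise transcription of genes that can lie far away. H3K4me1 marks enhancers whether or not they are in use, H3K27ac marks those in use, H3K4me3 marks promoters, and H3K27me3 is the mark that Polycomb complexes place on silenced chromatin. In adipocytes, enhancers bound by PPARg, C/EBP proteins, EBF factors and the glucocorticoid receptor drive genes of lipid storage and insulin response.

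Sequences are printed for 7 of these enhancers, each the 300 bases with the most motif matches within the central 1000 bp of the region (GRCm38, plus strand, no exon touched). The Ebf1, Igf1 and Abhd5 enhancers stand for genes of fat cell biology. The Tenm4, Cbln1 and Vegfa regions carried H3K27ac in every control library and in few diet libraries. The Sox5 region carried it in 10 of 12 diet libraries, the highest count, shared with 1 other region. Capitals mark matches to C/EBP (TTNNGCAA), EBF1 (CCCNNGGG), the glucocorticoid receptor (ACANNNTGT), nuclear factor 1 or PPAR motifs on either strand.
Ebf1 intron, chr11:44948478-44948777: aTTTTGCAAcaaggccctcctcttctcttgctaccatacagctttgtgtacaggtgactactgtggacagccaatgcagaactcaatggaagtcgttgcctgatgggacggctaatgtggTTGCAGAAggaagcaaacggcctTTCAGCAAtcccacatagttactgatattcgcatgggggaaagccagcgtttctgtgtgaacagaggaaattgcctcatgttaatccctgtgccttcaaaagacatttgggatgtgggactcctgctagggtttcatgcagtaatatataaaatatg
Igf1 intron, chr10:87878414-87878713: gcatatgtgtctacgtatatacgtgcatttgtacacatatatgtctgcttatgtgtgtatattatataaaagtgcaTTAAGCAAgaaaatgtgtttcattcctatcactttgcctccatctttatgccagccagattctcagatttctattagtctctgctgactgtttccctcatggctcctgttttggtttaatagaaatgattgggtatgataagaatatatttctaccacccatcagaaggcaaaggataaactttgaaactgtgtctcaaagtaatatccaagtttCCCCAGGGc
Abhd5, chr9:122378099-122378398: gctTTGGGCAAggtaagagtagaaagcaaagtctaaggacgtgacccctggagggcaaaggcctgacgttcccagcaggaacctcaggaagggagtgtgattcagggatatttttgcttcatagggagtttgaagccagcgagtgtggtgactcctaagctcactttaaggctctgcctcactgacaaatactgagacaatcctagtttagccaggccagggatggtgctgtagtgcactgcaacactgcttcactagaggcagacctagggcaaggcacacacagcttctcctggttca
Tenm4 intron, chr7:96242399-96242698: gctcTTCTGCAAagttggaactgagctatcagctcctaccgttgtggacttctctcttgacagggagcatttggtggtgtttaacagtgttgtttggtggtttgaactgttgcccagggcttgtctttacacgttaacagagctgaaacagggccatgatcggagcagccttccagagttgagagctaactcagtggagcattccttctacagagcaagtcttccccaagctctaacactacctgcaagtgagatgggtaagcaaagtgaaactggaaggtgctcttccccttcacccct
Cbln1 side, chr8:87308327-87308626: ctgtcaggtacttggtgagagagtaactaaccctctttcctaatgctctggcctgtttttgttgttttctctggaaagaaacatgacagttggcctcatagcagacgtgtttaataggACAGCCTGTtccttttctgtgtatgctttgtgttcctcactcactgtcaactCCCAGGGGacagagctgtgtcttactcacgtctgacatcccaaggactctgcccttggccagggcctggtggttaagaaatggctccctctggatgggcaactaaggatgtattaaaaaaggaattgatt
Vegfa side, chr17:45998420-45998719: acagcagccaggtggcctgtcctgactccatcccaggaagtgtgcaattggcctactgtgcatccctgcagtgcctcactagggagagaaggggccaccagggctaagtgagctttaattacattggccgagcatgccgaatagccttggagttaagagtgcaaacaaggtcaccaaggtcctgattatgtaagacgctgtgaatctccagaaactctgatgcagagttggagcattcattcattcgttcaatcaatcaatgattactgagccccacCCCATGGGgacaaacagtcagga
Sox5 intron, chr6:144690614-144690913: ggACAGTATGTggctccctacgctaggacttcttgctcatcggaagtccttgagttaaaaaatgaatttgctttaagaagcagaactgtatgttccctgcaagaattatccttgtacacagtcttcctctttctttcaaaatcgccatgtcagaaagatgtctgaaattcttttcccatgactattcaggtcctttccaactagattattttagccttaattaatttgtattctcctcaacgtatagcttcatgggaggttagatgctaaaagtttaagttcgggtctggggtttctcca
The C/EBP pattern occurred 3 times in the Ebf1 stretch and once each in the Igf1, Abhd5 and Tenm4 stretches. A match is a description of letters and not evidence of binding.

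The choice of regions was shaped most by H3K4me3. With H3K4me1 and H3K27ac counted as above but H3K4me3 ignored, 9573 regions outside the TSS windows passed, and 417 of them touched no H3K4me3 peak. Counting H3K4me3 from control libraries alone left 613. Within the chosen set, 152 enhancers had H3K27ac in exactly 5 of 9 control libraries and 20 had it in 9 of 9, while 56 had H3K4me1 in exactly 5 of 10 and 76 in 10 of 10. Both marks were present in every control library at 8 enhancers. Just outside the limits lay 200 regions with H3K27ac in 4 of 9 and 59 with H3K4me1 in 4 of 10. Enhancers at the limit of 5 carried H3K27ac in a median of 3 of 12 diet libraries and those just outside, at 4, in a median of 2.

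The enhancers were remote from promoters. Their median distance to the nearest protein-coding TSS was 80377 bp (quartiles 34279 and 168813 bp), against 36709 bp for the 25647 other distal regions. Between genes lay 47% of them, in introns 34.8%, and 18.2% touched an exon, against 37.8%, 47.7% and 14.5% of other distal regions. Their median width was 3154 bp against 2054 bp. Their H3K27ac peaks were of low rank. In each of 9 control libraries the median peak at an enhancer stood between the 20.7 and 43 percentile of that library's own peaks by total signal, above the median of other distal peaks in all 9 (13.1 to 20.9). In the 12 diet libraries, those enhancers that were still marked stood at 27.2 to 44.5, above the other distal peaks in 10 libraries, with HH 1 and HHC 3 as the exceptions.

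A total of 259 genes had an enhancer within 20000 bp of the gene body, 1.19% of 21827 protein-coding genes, and 257 of 417 enhancers had such a gene. Tenm4, which encodes a large transmembrane protein of the teneurin family, had the most, with 5 enhancers. Angpt1 (angiopoietin 1, a ligand of the endothelial receptor Tie2), Bmper (a secreted regulator of bone morphogenetic proteins) and Rasgrf2 (an exchange factor for Ras) had 4 each. Lpp, a protein of focal adhesions, had 3, as did Cenpp, whose gene contains that of the matrix protein Aspn. The other genes of the leading 10, 4930469K13Rik, Ankrd44, Anks1b and Arhgap26, had 2 each and were tied with further genes, among them, named after the values were seen, Egfr and Esr1.

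Genes of classical fat cell function with one of these enhancers were few in number. In the metabolic lists where any gene had one, the share was above the 1.19% of all genes, on 1 or 2 genes each, and was not tested. Among adipogenic factors 2 of 20 genes (10%) had one, Ebf1 and Nfia. Lipolysis and adrenergic signalling gave 1 of 14 (7.14%), Abhd5, the activator of the triglyceride lipase ATGL. Lipogenesis gave 1 of 20 (5%), Pcx (pyruvate carboxylase), and the insulin and glucose list 2 of 15 (13.3%), Grb10 (an adaptor that restrains insulin signalling) and Igf1. No gene had one among 10 adipokines, 12 lipid droplet proteins, 10 fatty acid uptake genes and 12 adipocyte markers, lists too short for a share of 1.19% to be told from 0. The markers of macrophages, lymphocytes and endothelial cells (10 genes each) and of mural cells, mesothelium and neurons (8 each) gave 0 too, and the progenitor list gave 2 of 10, Dpp4 and Col3a1. When H3K4me3 was ignored, 7 of 12 adipocyte markers gained a region, Adipoq, Cidec, Lep, Pparg, Cebpa, Adrb3 and Acvr1c, against 23.6% of all genes. So did 5 of 8 mural, 4 of 10 endothelial, 4 of 10 progenitor (2 of them in the set of 417), 3 of 10 macrophage, 1 of 10 lymphocyte, 1 of 8 mesothelial and 0 of 8 neuron markers. The linked genes thus do not by themselves mark the set as that of adipocytes. The label rests on the pull-down and on promoters: all 12 adipocyte marker promoters carried H3K27ac in each of the 9 control libraries. Beside these stood 1 to 5 of 10 macrophage, 0 to 2 of 10 endothelial, 0 or 1 of 10 lymphocyte, 1 to 6 of 10 progenitor and 1 to 3 of 8 mural promoters. Among them were Col3a1, Cspg4 and the macrophage marker Cd14 in 9 of the 9 libraries. Dcn and the macrophage marker Cd68 were marked in 7, the endothelial marker Egfl7 in 6 and the lymphocyte marker Lck in 5. H3K4me3 separated the cell types less. In control libraries it lay on all 12 adipocyte promoters, but also on 1 to 8 of 10 progenitor, 0 to 7 of 10 endothelial, 0 to 7 of 8 mural and 0 to 3 of 10 macrophage promoters.

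The promoters of the 259 linked genes were often active. H3K27ac lay on 60.5% ± 1.46 of them in C (SD, n = 3) against 37.4% ± 1.32 of all promoters in the same libraries, and H3K4me3 on 79.2% ± 2.32 against 58.7% ± 1.67. In H, H3K27ac lay on 42.5% ± 10.3 (n = 3) of linked and 30.0% ± 9.16 of all promoters, and in HC on 49.8% ± 10.4 (n = 3) and 35.7% ± 12.0, beside 55.2% ± 9.83 and 34.7% ± 8.03 in CC_s (n = 2). Linked promoters in HH and HHC stood at 66.8% ± 3.02 and 68.5% ± 4.92 (n = 3 each), beside 70.1% ± 2.46 in CC_l and 55.6% ± 24.6 in CCC (n = 2 each). All promoters in these groups stood at 49.7% ± 5.48, 52.9% ± 0.664, 50.1% ± 4.89 and 34.3% ± 23.4. The linked share was thus above that of all promoters in each group mean, and no difference between groups was tested. Linking only by the nearest TSS within 20000 bp left 52 genes.

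Fewer of the enhancers carried H3K27ac in obese mice than in the lean mice that had been used to choose them. In C the mark lay on 67.4%, 64.5% and 69.5% of the 417 enhancers and in H on 20.4%, 9.59% and 15.1%. After weight loss HC showed 17.3%, 30.5% and 9.11%, beside 35.5% and 59.95% in CC_s. In the 25-week cohort HH showed 8.63%, 55.6% and 66.7% beside 92.6% and 96.2% in CC_l, and HHC 15.8%, 72.7% and 12.2% beside 97.6% and 42.9% in CCC. Diet libraries and those of their age-matched controls overlapped only where CCC 3 lay below HHC 2. Because the controls defined the set, part of such a gap is built into the choice and no test was made of it.

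**Figure D1:**
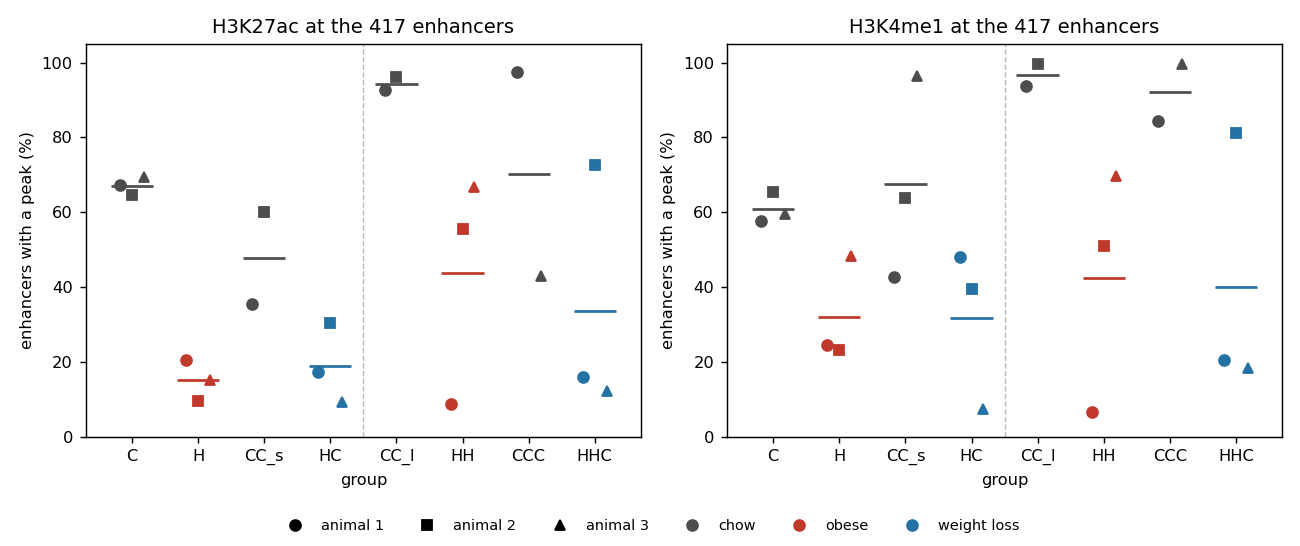
Share of the 417 enhancers (vertical axis, %) with an H3K27ac peak (left) or an H3K4me1 peak (right) in each library, by group, with lines at group means and a dashed line between the 12-week and 25-week cohorts. The regions were chosen by H3K4me1 and H3K27ac counts in control libraries (grey) and by absence of H3K4me3 in all libraries. HH 1 stands at 8.63% and HHC 2 at 72.7% for H3K27ac.

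H3K4me1 was low and high in part in the same animals. It lay on 24.5%, 23% and 48.2% of the enhancers in H and on 48%, 39.6% and 7.43% in HC, beside 57.6% to 65.5% in C and 42.7% to 96.4% in CC_s. In HH the shares were 6.47%, 50.8% and 69.8% and in HHC 20.4%, 81.3% and 18.2%, beside 93.8% and 99.5% in CC_l and 84.4% and 99.8% in CCC. The animals H 1, H 2, HC 3, HH 1, HHC 1 and HHC 3 were low for both marks (at most 20.4% for H3K27ac and 24.5% for H3K4me1). HH 2, HH 3 and HHC 2 were high for both. The order differed within H, where animal 3 was highest for H3K4me1 and animal 1 for H3K27ac, within HC, where these were animals 1 and 2, and in CCC, where animal 3 had 99.8% for H3K4me1 and 42.9% for H3K27ac. Libraries with low shares held both few and many peaks. H 3 had 12173 H3K27ac peaks, the fewest of all, HC 1 had 15157 and H 2 had 18226, whereas HH 1 had 38712 H3K27ac peaks and 11.6% of all other distal regions marked, and HHC 3 had 41988 peaks and 15.3%, more than any control library (8.38% at most).

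**Figure D2:**
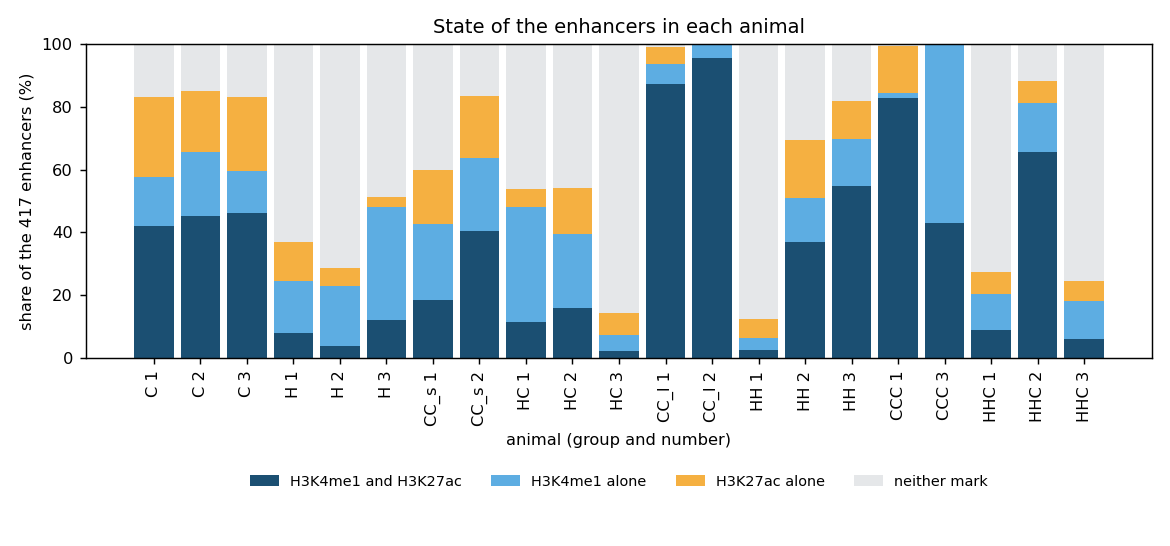
State of the 417 enhancers in each of the 21 animals with both marks measured, as stacked shares (%): both marks, H3K4me1 alone, H3K27ac alone or neither. Neither mark was found at 85.6% of enhancers in HC 3 and 87.5% in HH 1.

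Read together within an animal, most enhancers without H3K27ac in H and HC carried neither mark. In H both marks were present at 7.91%, 3.84% and 12.0% of enhancers, H3K4me1 alone at 16.5%, 19.2% and 36.2%, and neither at 63.1%, 71.2% and 48.7%. In C both marks were present at 42% to 46% and neither at 15.1% to 17%. In HC neither mark was found at 46.3%, 45.8% and 85.6%. HH ran from 87.5% with neither in animal 1 to 18.2% in animal 3, and HHC from 75.5% in animal 3 to 11.8% in animal 2.

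Obese and weight-loss mice did not differ beyond their spread. Their H3K4me1 and H3K27ac did not count towards the limits of the choice. However, their H3K4me1 peaks were merged into the regions and their H3K4me3 peaks removed regions. With H3K4me3 of control libraries alone (613 regions), mean H3K27ac shares were 18.7% in H, 23.7% in HC, 49.6% in HH and 39.3% in HHC. For H3K27ac at the 417 enhancers, H averaged 15.0% ± 5.40 and HC 18.9% ± 10.8, HH averaged 43.6% ± 30.8 and HHC 33.6% ± 33.9 (SD, n = 3 each). The difference, obese minus weight loss and averaged over cohorts, was 3.08 percentage points (exact permutation test within cohorts, two-sided, p = 0.93, adjusted p = 1 over 13 tests). For H3K4me1 it was 1.32 points (exact permutation p = 0.91, adjusted p = 1), where the means were 31.9% ± 14.1 (H) against 31.7% ± 21.4 (HC), then 42.4% ± 32.5 (HH) against 39.97% ± 35.8 (HHC). For enhancers with H3K4me1 but not H3K27ac it was 0 points (exact permutation p = 1, adjusted p = 1). The smallest p this design could give was 0.005. With animals this far apart, these values do not show that the groups were alike. The sign of the first 2 differences turned when single animals were left out. Without H 2, HC 3, HH 1, HHC 1 and HHC 3 they were -8.81 and -14.2 points.

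Markers of other cells moved with some of these libraries. Adipocyte marker promoters carried H3K27ac at 12 of 12 genes in 8 of the 12 diet libraries, but at 10 in H 2, 7 in HC 3, 8 in HH 1 and 7 in HHC 3. Macrophage marker promoters were marked at 0 to 6 of 10 in H beside 2 in each C library, and at 0 to 5 in HC beside 1 and 2 in CC_s. They were marked at 3 to 6 in HH beside 2 in each CC_l library. In HHC the counts were 3 to 8, with the 8 in HHC 1, beside 5 and 1 in CCC. Lymphocyte marker promoters were marked at 10 of 10 in HHC 1 and 4 of 10 in HHC 3, and endothelial ones at 8 of 10 in HH 1 and 7 of 10 in HC 3. Of the defining genes, the macrophage markers Itgam and Cd163 and the endothelial marker Vwf had no H3K27ac in any of the 21 libraries. The pan-leukocyte gene Ptprc had it in 0 of 9 control and 5 of 12 diet libraries and the endothelial gene Pecam1 in 0 of 9 and 7 of 12. Other markers had it in controls already: Cd14 in 9 of 9 and 9 of 12, Cd68 in 7 and 9, Egfl7 in 6 and 8, Lck in 5 and 7. Some went the other way: Col3a1 from 9 of 9 to 3 of 12, Dcn from 7 of 9 to 4 of 12, Myh11 from 5 of 9 to 2 of 12. Progenitor markers ranged from 0 to 6 of 10 in the 12-week diet groups and from 4 to 8 in HH and HHC, beside 1 to 6 in controls. Mural markers ranged from 1 to 4 of 8, mesothelial from 0 to 2 of 8 and neuron from 0 to 1 of 8. Their part in the enhancer shares was not tested. In these bulk samples fewer nuclei of a type and less of a mark per nucleus cannot be told apart. By H3K27ac, of the animals low for both marks, HC 3, HH 1, HHC 1 and HHC 3 had the highest lymphocyte or endothelial counts. H 1 and H 2, low too, had endothelial counts of 3 of 10, as did HHC 2, which was high for both marks. Their lymphocyte counts were 2 and 0, beside 1 in HHC 2. For H3K4me3, HH 1 had no library. Endothelial promoters carried H3K4me3 at 9, 9 and 8 of 10 in HH 2, HH 3 and HHC 2, which were high for both enhancer marks. In H 1, H 2, HC 3, HHC 1 and HHC 3 the endothelial counts were 9, 8, 7, 6 and 8. Macrophage promoters carried it at 8 of 10 in each of these but HC 3, with 5. Lymphocyte promoters carried it at 1, 2, 4, 10 and 8 of 10 in H 1, H 2, HC 3, HHC 1 and HHC 3. In HH 2, HH 3 and HHC 2 the counts were 5, 4 and 6. In H 3 and HC 1 all 12 adipocyte promoters and 0 of 10 macrophage promoters carried H3K27ac, which lay on 15.1% and 17.3% of enhancers. Of the diet libraries these held the fewest H3K27ac peaks, 12173 and 15157, with 20.8% and 25.2% of all promoters marked.

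The median enhancer kept H3K27ac in 3 of 12 diet libraries and H3K4me1 in 4 of 12. For H3K27ac 157 enhancers were marked in 2 or fewer diet libraries, 36 of them in 0, and 2 in 10 or more. For H3K4me1 113 were marked in 2 or fewer, 29 of them in 0, and 23 in 10 or more. No enhancer had H3K27ac in all 21 libraries.

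**Figure D3:**
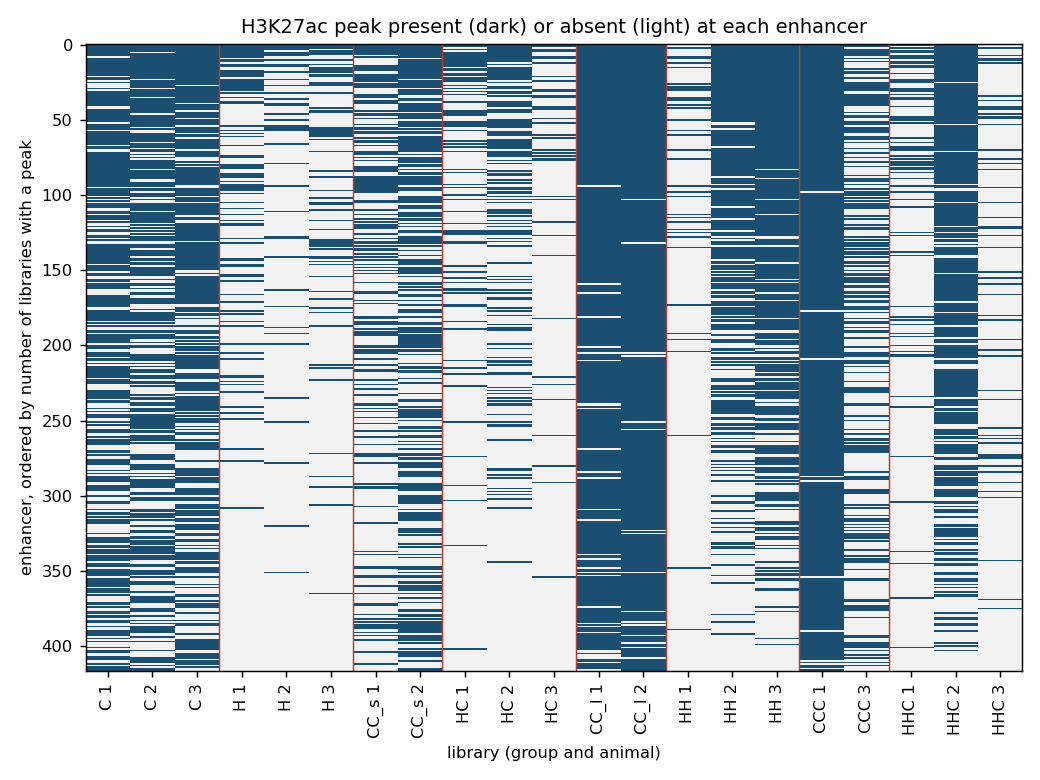
Presence (dark) or absence (light) of an H3K27ac peak at each of the 417 enhancers (rows, ordered by the number of libraries with a peak) in 21 libraries (columns, by group and animal). The columns of HH 1 (36 enhancers marked) and HC 3 (38) are nearly empty, and those of CC_l 2 (401) and CCC 1 (407) nearly full.

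A mark was called lost in a diet group when every library of the age-matched control group had it and no diet library did. H3K27ac was lost at 74 enhancers in H (17.7%), against 0.399% of the 26064 distal regions, and at 54 in HC (12.9%), against 0.322%. It was lost at 83 in HH (19.9%, against 1.58%) and at 34 in HHC (8.15%, against 0.399%). By the same definition it was lost in both H and HC at 9 enhancers (0.0422% of distal regions) and in both HH and HHC at 12 (0.0729%). H3K4me1 was lost in H at 37 enhancers (0.388% of distal regions) and in HC at 30 (0.303%), with 92 for HH (3.42%) and 49 for HHC (2.19%), in both H and HC at 5 (0.023%) and in both HH and HHC at 20 (0.51%). Only a region marked in controls can lose a mark, and the enhancers were selected for that, so nothing is read from their excess over the background.

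The enhancers of the fat cell genes differed case by case. The Ebf1 enhancer, an intron region on chromosome 11 from 44943561 to 44950422, carried H3K27ac in 6 of 9 control libraries, of which 1 of 3 was in C, 1 of 2 in CC_s and 2 of 2 each in CC_l and CCC. No H or HC library had the mark there (0 of 3 each), 2 of 3 HH libraries did and 1 of 3 HHC libraries did. H3K4me1 was present in 3 of 3 H and 2 of 3 HC libraries, beside 1 of 3 each in C and CC_s. The Grb10 enhancer, also intronic (chromosome 11, 11939586 to 11943646), had H3K4me1 in 3 of 3 H and 1 of 3 C libraries, and H3K27ac in 0 of 3 H and 2 of 3 C libraries. Both were H3K4me1 regions without H3K27ac in H. The Abhd5 enhancer (chromosome 9, 122377566 to 122380099, touching an exon) had H3K27ac in 5 of 9 controls and 0 of 12 diet libraries, and H3K4me1 in 1 of 12. Of those controls, CC_s had H3K27ac there in 0 of 2 and CCC in 1 of 2 libraries. The Igf1 intron enhancer (chromosome 10, 87876979 to 87881582), 15650 bp from the TSS, had H3K27ac in all 3 C libraries and in 1 of 3 for H. It was marked in 0 of 3 HC beside 1 of 2 CC_s libraries, and in 2 of 3 HH beside 2 of 2 CC_l libraries. In HHC it was marked in 2 of 3, beside 1 of 2 in CCC. Nfia and Pcx enhancers were each marked in 0 of 3 H beside 2 of 3 C libraries, and in 5 of 12 diet libraries in all. In all controls these were 7 of 9 for Nfia and 8 of 9 for Pcx. After weight loss Nfia had 2 of 3 in HC beside 1 of 2 in CC_s, and 1 of 3 in HHC beside 2 of 2 in CCC. Pcx had 1 of 3 in HC and 2 of 3 in HHC, beside 2 of 2 each in CC_s and CCC.

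Among the 20 enhancers with H3K27ac in 9 of 9 controls, 6 with the fewest diet libraries were singled out by their values. Regions 235410 bp from Sp3, 162527 bp from Cbln1 and 31177 bp from the angiogenic factor Vegfa, all intergenic, kept the mark in 1 of 12 diet libraries each. An intron region of Tenm4 (chromosome 7, 96239553 to 96246639) and a region over Aspn and Cenpp kept it in 2 of 12, and one 278246 bp from Jarid2 in 3 of 12, a count it shared with 2 others, 1 of them an intron region 17068 bp from the Ankrd46 TSS. The Tenm4 region retained H3K4me1 in 8 of 12 diet libraries, whereas the Cbln1 region had it in 0 of 12. At the other end of these 20, 1 region kept it in 10 of 12. The only other enhancer with 10 of 12 was a Sox5 intron region (chromosome 6, 144688661 to 144694701), named after its values were seen, with H3K27ac in 8 of 9 control libraries and H3K4me1 in 12 of 12 diet libraries. An intergenic region 42783 bp from Col3a1, a fibrillar collagen gene of progenitors and fibroblasts, had H3K27ac in 9 of 9 control and 9 of 12 diet libraries.

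H3K27me3 peaks were not counted in the choice and were rare on the enhancers. The H3K27ac required in controls sits on the same lysine, so the choice may itself have favoured low H3K27me3 in control libraries. A peak touched 53 of 417 enhancers (12.7%) in any of 20 libraries, against 20.6% of primed regions, here the 432 distal regions with H3K4me1 in 5 or more of 10 controls and H3K27ac in 0 of 9. Of these 53, 11 were touched in a control library and 48 in a diet library. The 3 C libraries had it on 0, 0 and 2 enhancers and the 2 H libraries on 6 and 4. CC_s had 0 in all 3 libraries and HC 2, 5 and 6. CC_l had 5 and 2 and HH 9 and 9, and CCC had 3 and 0 and HHC 15, 2 and 22. Every obese library lay above every control library of its age.

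Obese minus control was 1.18 percentage points (exact permutation test within cohorts, p = 0.0167, the smallest possible here, adjusted p = 0.0542), higher in 4 of 4 obese libraries. Weight loss minus control was 1.90 points (exact permutation p = 0.09, adjusted p = 0.146), with 5 of 6 libraries above all of their controls. Neither passed the adjusted threshold of 0.05, and the counts behind them are small. The choice by H3K27ac in controls may favour this direction, so these tests were not free of it. Without the 5 diet animals H 2, HC 3, HH 1, HHC 1 and HHC 3 the weight loss difference was 0.48 points. In the remaining distal regions, H3K27me3 lay on 2.34% and 2.35% in H and 2.71% to 3.91% in C, and on 7.34% and 4.66% in HH beside 6.34% and 4.71% in CC_l. On primed regions it lay on 2.31% in both H libraries beside 1.16% to 2.55% in C, on 2.78% to 5.56% in HC beside 0.926% to 1.62% in CC_s, on 8.56% and 6.02% in HH beside 4.63% and 1.62% in CC_l, and on 4.398% to 8.33% in HHC beside 2.55% and 1.85% in CCC. Diet libraries were thus above their controls at primed regions too, with H within the range of C, and no test compared the sets. A Cfdp1 intron region on chromosome 8 gained it most, from 0 of 10 control to 5 of 10 diet libraries, with 2 of 2 H and 2 of 2 HH. The Vegfa region followed with 0 of 10 against 4 of 10, including 3 of 3 HHC, and one 220953 bp from the corepressor gene Tle3 with 1 of 10 against 4 of 10. In the other direction no region lost more than 1 library of 10, as at Tanc1, Egfem1 and Anks1b introns.

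To keep the H3K4me1 and H3K27ac counts of the compared controls out of the choice, enhancers were chosen in one cohort and measured in the other. The choice took marks in at least 0.5 of the control libraries of the first. Regions touching an H3K4me3 peak of any library, diet libraries of the measured cohort included, were still left out. The choice was thus not free of the diet mice that were tested. It gave 1654 enhancers measured in the 12-week cohort and 224 measured in the 25-week cohort. H3K27ac lay on 30.8% ± 3.94 of them in C and 8.67% ± 4.29 in H (n = 3 each), and on 92.0% ± 3.79 in CC_l (n = 2) and 44.3% ± 30.6 in HH (n = 3). All 6 obese libraries lay below all of their controls, with a mean difference of -34.9 points (exact permutation p = 0.01, adjusted p = 0.0542). H3K4me1 was lower in the obese by 31.9 points, again in 6 of 6 libraries (exact permutation p = 0.025, adjusted p = 0.065). Without HH 1 both differences were smaller, -26.1 and -22.5 points, and passed (exact permutation, adjusted p = 0.0433 each). For each mark this was the only 1 of 23 alternatives that passed. Over these alternatives, which included ignoring H3K4me3, the differences ran from -47.6 to -22.1 points (H3K27ac) and from -52.4 to -11.5 points (H3K4me1). After weight loss the H3K27ac difference was -21.4 points (exact permutation p = 0.23, adjusted p = 0.299), with 10.9% ± 5.43 in HC beside 19.3% ± 7.35 in CC_s and 36.3% ± 36.9 in HHC beside 70.8% ± 35.7 in CCC. It was -8.84 without CCC 1, and -34.1 without CCC 3. Leaving out the diet animals with fewer adipocyte marker promoters marked (H 2, HC 3, HH 1 and HHC 3) and HHC 1, with its lymphocyte marker promoters marked, a choice made after seeing the data, it was 0.48 points (exact permutation p = 1), with HHC 2 the only HHC animal left. Without these animals the obese differences were -25.4 points for H3K27ac and -21.4 for H3K4me1 (exact permutation p = 0.0167, the smallest possible there, and adjusted p = 0.0722 each). With all animals the weight-loss difference for H3K4me1 was -37.3 points (exact permutation p = 0.075, adjusted p = 0.146). Within cohorts the obese differences for H3K27ac were -22.1 points (12-week) and -47.6 points (25-week), and the test of that gap gave p = 0.545 (exact permutation). For H3K4me1 they were -11.5 and -52.4 points. After weight loss they were -8.44 and -34.4 points for H3K27ac and -21.6 and -52.9 for H3K4me1. The smallest p within a cohort of this size was 0.1.

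**Figure D4:**
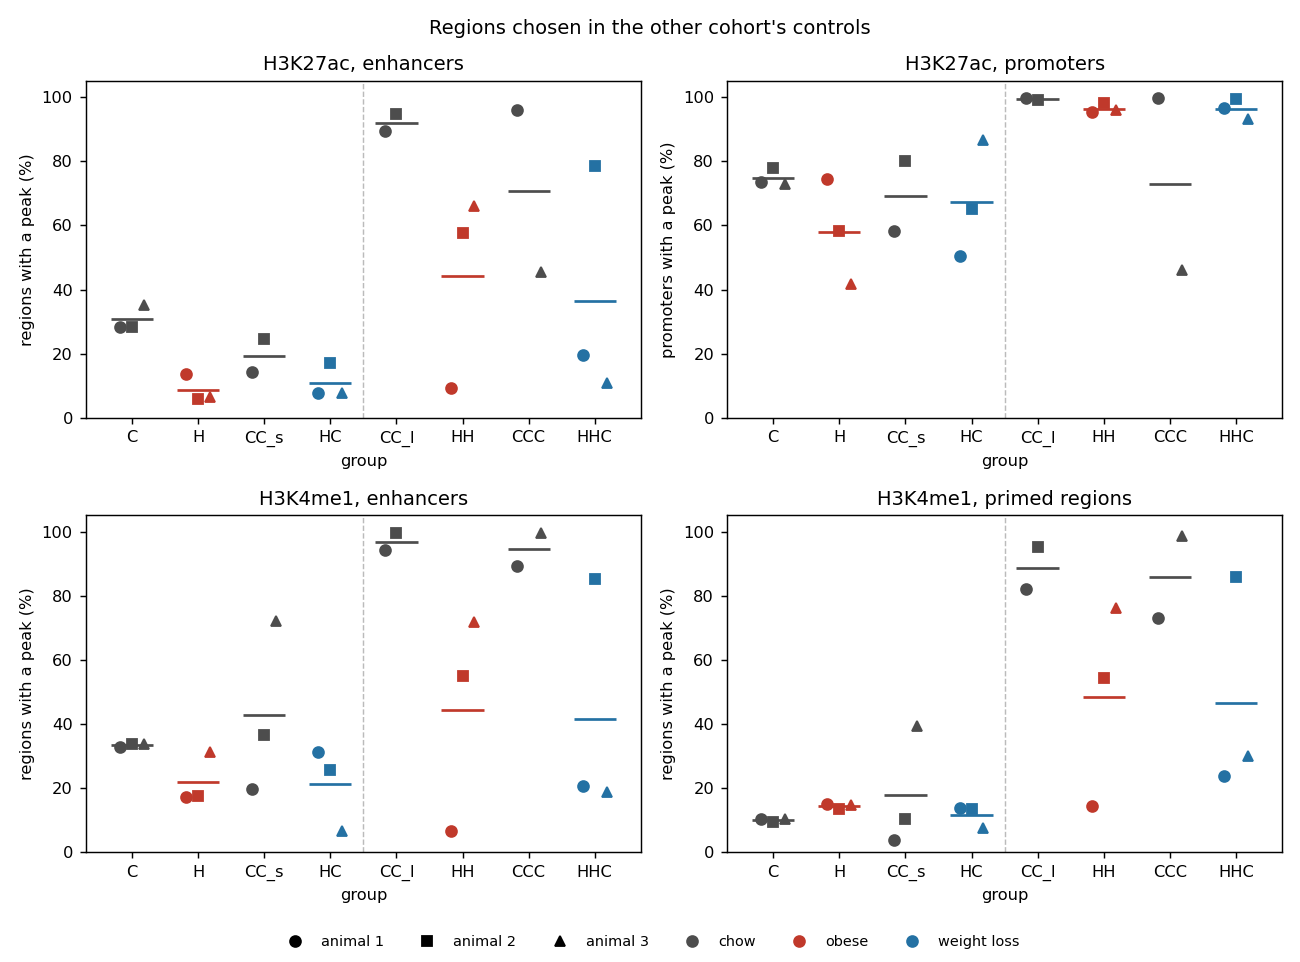
Regions chosen with the control mice of the other cohort: H3K27ac at enhancers and at promoters (top), H3K4me1 at enhancers and at primed regions (bottom), as the share with a peak in each library (%), with lines at group means. All 6 obese libraries lie below their age-matched controls in both enhancer panels, whereas promoters in HH stay at 95.3% to 98.0%.

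Promoters and primed regions, chosen in the other cohort too, were compared with the enhancers in each library. The H3K4me3 criterion was not applied to promoters. In the 25-week cohort the 8087 promoters kept H3K27ac at 96.4% ± 1.42 in HH and 96.4% ± 3.10 in HHC (n = 3 each), beside 99.4% ± 0.393 in CC_l and 72.9% ± 37.98 in CCC (n = 2 each). In the 12-week cohort the 10877 promoters were at 58.1% ± 16.4 in H and 74.7% ± 2.65 in C (n = 3 each). Enhancers minus promoters differed between obese and control by -25.1 points (exact permutation p = 0.08, adjusted p = 0.146) and between weight loss and control by -32.3 points (exact permutation p = 0.11, adjusted p = 0.159). These were -5.48 and -6.59 points in the first cohort, and -44.6 and -57.98 points in the second. With nearly all promoters marked in CC_l, HH and HHC, promoters cannot show how well peaks of low rank were detected there.

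H3K4me1 at enhancers was then set against H3K4me1 at primed regions, a comparison added after the data were seen. In C it lay on 33.5% ± 0.646 of enhancers and 10.0% ± 0.624 of primed regions, and in H on 21.9% ± 7.96 and 14.4% ± 0.769 (n = 3 each). In the 12-week cohort the mean of H was thus lower at enhancers and higher at primed regions. In the 25-week cohort both means were lower in HH, at 44.5% ± 33.8 and 48.3% ± 31.4 (n = 3), than in CC_l, at 96.9% ± 3.79 and 88.8% ± 9.25 (n = 2). The difference of enhancers minus primed regions was lower in obese than in control mice in 6 of 6 libraries (-13.9 points, exact permutation p = 0.005, the smallest possible, adjusted p = 0.0542) and -14.5 points after weight loss in 5 of 6 (exact permutation p = 0.015, adjusted p = 0.0542). The cohorts gave -15.9 and -11.9 points for obesity and -15.3 and -13.6 for weight loss. No test of the 13 passed 0.05 after adjustment.

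The base composition of the enhancers and their motifs were described without a test. In 1000 bp windows at their centres the median GC content was 43.8%, against 45.4% for other distal regions and 45.2% for primed regions, with a median of 7, 9 and 8 CpG sites. The C/EBP pattern occurred in 48.7% of the enhancer windows, against 39.6% of other distal and 44.7% of primed windows. The glucocorticoid receptor pattern was found in 38.4% against 31.9% and 29.9%, and the STAT5 pattern (TTCNNNGAA) in 36.7% against 29.7% and 32.4%. The PPAR repeat, AGGNCA in tandem with a base between the copies, stood at 2.64% against 2.66% and 2.08%. EBF1 (22.5% against 23.5% and 27.8%), nuclear factor 1 (TGGC and GCCA, 5 bases apart, 3.12% against 3.41% and 4.86%) and the ETS core CCGGAAG (2.64% against 3.93% and 3.70%) were less frequent than in both. AP-1 (TGANTCA) stood at 31.9% against 31.5% and 28.2%. Patterns rich in A and T are more frequent in windows of low GC content, and its part was not tested. Enhancers with and without the C/EBP pattern both kept H3K27ac in a median of 3 of 12 diet libraries, as did those with and without the PPAR repeat. The 13 with the nuclear factor 1 pattern had a median of 2 and the 404 without it a median of 3.

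**Figure D5:**
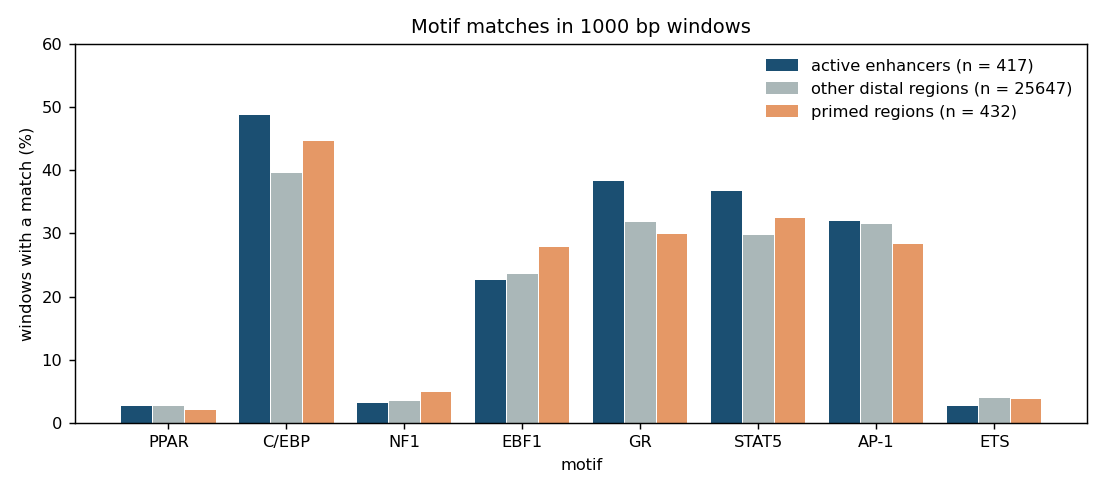
Share of 1000 bp windows (%) with a match to each motif on either strand at active enhancers (417 windows), other distal regions (25647) and primed regions (432). The C/EBP pattern stands at 48.7% in active enhancers and 39.6% in other distal regions.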

How the data were processed

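Peak lists of 84 CUT&Tag libraries were used, in GRCm38 coordinates. Per the labels and the study's methods, the authors trimmed reads (Trim Galore 0.6.6), aligned them (Bowtie2 2.4.4, SAMtools 1.13, bedtools 2.30) and called peaks per library with SEACR 1.3. The deposited columns hold each peak's total and highest signal in unscaled coverage, which cannot be compared between libraries, so the presence of a peak (1 bp of overlap) and ranks within a library were used. Lists held 12173 to 41988 H3K27ac and 14484 to 40681 H3K4me1 peaks, and presence depends on depth, for which the study states a minimum number of reads per sample but no value per library. A region of very high signal on chromosome 2 is in all 84 lists. No 2 lists were identical.

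H3K4me1 peaks of chromosomes 1 to 19, X and Y were merged. Genes and start sites came from GENCODE M21 (basic, 21851 genes, 41438 start sites). Python 3 scripts with numpy computed shares per library, and differences were tested by exact two-sided permutation of labels within cohorts, averaged over cohorts, with Benjamini-Hochberg adjustment over 13 tests. A p-value is thus the share of relabellings with a mean difference at least as large. With 2 or 3 animals a group the number of relabellings limits how small it can be. The code was tested on simulated data. Motifs were searched in the GRCm38.p6 genome. For 4 H3K4me3 libraries the treatment field goes against the title; titles were used. The set of 417 does not depend on it, but the count of regions free of H3K4me3 in control libraries alone does, since 2 of the 4 are controls by title. Replicate numbers name animals within a group, so groups share only numbers.

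Alternatives were peak number, peak strength, overlap, TSS distance, strictness of choice, single libraries, replicate block and cohort. Named regions were chosen by fixed rules: for genes of the metabolic lists, the enhancer within 20000 bp with H3K27ac in most libraries; the 6 with H3K27ac in 9 of 9 controls and the fewest diet libraries; those with H3K27ac in 21 of 21 libraries, of which there were 0; up to 3 with the largest H3K27me3 gain or loss; and the 10 genes with most enhancers. The regions and lists were chosen with earlier results of these data known.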

Additional observations from a re-analysis of the deposited data

How the results depend on the processing

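Depth per library is not listed, and peaks at these enhancers are of low rank, so presence depends on how many peaks a library lists. With the same number of peaks in every library 15 enhancers remained, with only the stronger peaks (0.5 of each list) 19, and with H3K4me1 in 8 of 10 and H3K27ac in 7 of 9 controls 104. Ignoring H3K4me3, an alternative added after seeing the data, gave 9573 regions with 5157 genes. Linking by the nearest TSS gave 52 genes. At 200 bp of overlap there were 416 enhancers and at 5000 bp from a TSS 412. With 15 or 19 enhancers the H3K27me3 differences were 0, which says nothing about stability.

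For obese against weight loss, the H3K27ac difference was -3.92 points in the 12-week cohort alone and -0.0453 without the H3K4me3 criterion, and the H3K4me1 difference was -1.44 under the strict choice. Leaving out 1 animal at a time gave -2.68 to 12.8 points for H3K27ac, turning without HH 3, HHC 1 or HHC 3, and -5.54 to 11.7 for H3K4me1, turning without H 3, HC 3, HH 2, HH 3, HHC 1 or HHC 3. The cause was not tested. For regions chosen in the other cohort the ranges without 1 animal were -40.3 to -26.1 (H3K27ac, obese), -38.8 to -22.5 (H3K4me1, obese), -16.1 to -12.0 (enhancers minus primed regions, obese) and -18.3 to -10.6 (the same, weight loss). The first 3 passed without HH 1 and the last without CC_s 1 (adjusted p = 0.0433 each, exact permutation), while over all alternatives their adjusted p ran up to 0.371, 0.371, 0.39 and 0.604. H3K27me3 ran from 0.999 to 1.36 points (obese) and from 1.36 to 2.56 (weight loss). Enhancers minus promoters ran from -30.6 to -16.6 (obese) and from -42.1 to -26.7 (weight loss).

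With animals limited to those having H3K27ac at every adipocyte marker promoter, without H 2, HC 3, HH 1 and HHC 3, the obese differences were -25.4 (H3K27ac), -21.4 (H3K4me1) and -12.0 points (enhancers minus primed regions), with adjusted p = 0.0722 each (exact permutation). Leaving out HHC 1 too changed the obese against weight loss differences to -8.81 (H3K27ac) and -14.2 points (H3K4me1) and the H3K27ac difference of weight loss against control to 0.475 points, with 1 HHC animal left. Both sets of animals were chosen after seeing the data. The replicate numbers do not pair animals across groups (4 of 43 same-numbered pairs had deviations correlated above 0.1). With a replicate block the same differences were -40.3, -38.8 and -13.7 points, with p = 0.0625 each by exact sign flips, the smallest possible there, and the block changed no other call.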
